A study of Mus musculus with 20 samples.

Results

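The 10 genes described here encode the enzymes and lectins that trim and read N-linked glycans in the endoplasmic reticulum (ER) and the early Golgi, together with a non-lysosomal glucosidase. They are Mogs, Ganab, Prkcsh, Man1a, Man1a2, Uggt1, Calr, Canx, Edem1 and Gba2. They were chosen by name, as glucosidases that imino sugars such as deoxynojirimycin can inhibit and as genes of glycoprotein folding, and all 10 were found among the 14776 genes of the deposited expression table. The rule used names and no measured value, though it was set with earlier results of these data known.

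The samples were eWAT, the white fat around the epididymis, taken from 20 male mice of the strain C57BL/6J that began their diets when 6 weeks old. The NC group (6 mice) ate normal chow, the HFD group (7 mice) ate a diet in which fat gave 60% of the energy and received saline into the stomach, and the SZ-A group (7 mice) ate the same high-fat diet and received Ramulus Mori (Sangzhi) alkaloids, an extract of mulberry twig, at 400 mg/kg each day. Dosing began after 14 weeks of feeding and lasted 6 weeks. Each library is from bulk tissue, so adipocytes, macrophages and other cells contribute to every value, and the levels are of mRNA, not of protein or enzyme activity.

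N-glycans are added to new proteins in the ER as a preformed oligosaccharide that ends in glucose residues. Glucosidase I (Mogs) removes the outermost glucose, and glucosidase II, a dimer of the catalytic Ganab and the regulatory Prkcsh, removes the following ones. The monoglucosylated protein is held by the lectin chaperones calreticulin (Calr, soluble) and calnexin (Canx, in the membrane) while it folds, and Uggt1 puts a glucose back on a protein that is still misfolded. Edem1 hands proteins that fail to fold to ER-associated degradation, and the mannosidases Man1a and Man1a2 trim the glycan further in the Golgi. Gba2 is a glucosylceramidase outside the lysosome. Imino sugars that resemble glucose, of which deoxynojirimycin from mulberry is the best known, inhibit ER glucosidases and Gba2.

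In the GRCm38 annotation (GENCODE M21), Mogs lies on chromosome 6 from 83115496 to 83118898, Ganab on chromosome 19 from 8898071 to 8916672 and Prkcsh on chromosome 9 from 22002806 to 22014222. Man1a lies on chromosome 10 from 53904785 to 54076609, Man1a2 on chromosome 3 from 100562208 to 100685503 and Uggt1 on chromosome 1 from 36140027 to 36244720. Calr lies on chromosome 8 from 84841850 to 84846934, Canx on chromosome 11 from 50293961 to 50325673, Edem1 on chromosome 6 from 108828641 to 108859356 and Gba2 on chromosome 4 from 43566928 to 43578873. Exons of Gba2 share 133 bases with Creb3 (2.97% of the 4481 exon bases of Gba2) and 159 bases with Rgp1 (3.55%), both on the opposite strand, and exons of Man1a share 147 of 9647 bases with an antisense transcript. The library kit does not mark strand, so reads in those bases cannot be assigned to a gene.

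RefSeq promoter windows of 300 bases that end shortly after the start of transcription were available for 9 of the 10 genes, the exception being Man1a2. They were searched on both strands for the ER stress response element (ERSE), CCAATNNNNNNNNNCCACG, which the factor ATF6 is known to bind with NF-Y in promoters of ER chaperone genes, and for TGACGTGG, the ATF6 site of the unfolded protein response element. ERSE was found in Calr and Canx and in 39 of all 32851 promoter windows (0.119%). TGACGTGG, present in 222 windows (0.676%), was found in none of the 9. The promoters of Calr and Canx are shown because they hold ERSE, and that of Edem1 because it is the member whose level differed in all 3 comparisons. The fixed letters of ERSE are in capitals. The element begins 162 bases before the start in Calr, where it reads on the opposite strand, and 145 bases before it in Canx. It overlapped no TGACGTGG. In GRCm38.p6 the windows are chr8:84846882-84847181 (minus strand), chr11:50325624-50325923 (minus strand) and chr6:108828391-108828690 (plus strand).
Calr: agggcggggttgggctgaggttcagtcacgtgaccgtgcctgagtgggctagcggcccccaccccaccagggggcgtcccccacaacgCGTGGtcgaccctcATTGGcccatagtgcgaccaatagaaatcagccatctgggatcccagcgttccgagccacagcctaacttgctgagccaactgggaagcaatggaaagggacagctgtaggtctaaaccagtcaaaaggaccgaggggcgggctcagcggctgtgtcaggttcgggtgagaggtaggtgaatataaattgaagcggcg
Canx: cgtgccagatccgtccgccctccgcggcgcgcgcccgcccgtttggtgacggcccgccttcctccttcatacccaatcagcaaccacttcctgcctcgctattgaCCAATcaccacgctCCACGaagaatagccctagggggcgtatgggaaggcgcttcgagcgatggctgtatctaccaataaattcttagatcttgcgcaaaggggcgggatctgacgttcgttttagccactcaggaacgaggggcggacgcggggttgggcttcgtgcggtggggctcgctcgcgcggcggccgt
Edem1: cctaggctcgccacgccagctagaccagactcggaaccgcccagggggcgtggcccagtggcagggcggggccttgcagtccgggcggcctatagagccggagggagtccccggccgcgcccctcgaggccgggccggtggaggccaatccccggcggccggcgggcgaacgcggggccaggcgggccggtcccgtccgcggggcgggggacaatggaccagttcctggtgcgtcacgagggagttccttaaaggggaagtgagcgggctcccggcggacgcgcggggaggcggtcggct
Of 83 other genes on the pathway lists described further on that had a window, 8 held ERSE, namely Alg12, Calr4, Syvn1, Hspa5, Hsp90b1, Dnajc3, Pdia6 and Creld2, and 0 held TGACGTGG. A match of letters is a description of the window and does not show that a factor binds there.

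Levels are given as FPKM, which scale fragments to exon length and library size and may be compared between genes as well as between mice. Between 13567667 and 19388628 reads per mouse were recovered on the listed genes. Among the 10 genes the counts behind a value ran from 266 reads, for Gba2, to 28565, for Calr. The smallest correlation of log2 levels between any 2 mice was 0.667.

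NC mouse 6 stood apart from the other libraries. Its median correlation with the other mice was 0.697, against 0.853 or more for each of the others, its summed level of 12 adipocyte markers was 527 FPKM (9760 to 23700 in the other NC mice), and Adipoq, the adipokine that defines adipocytes, was at 26.6 FPKM (859 to 2280 in the other NC mice). The tissue label therefore did not match its markers in that library. NC mouse 6 and SZ-A mouse 2 shared high levels of Ly6g5b (2700 and 352 FPKM) and Teddm2 (524 and 190 FPKM), which were at or below 1.40 FPKM in the other mice. Cdh1, the cadherin of epithelial cells, was at 20 FPKM or more in NC mice 1, 2 and 6 (56.2, 35.9 and 71.1 FPKM) and SZ-A mice 2 and 7 (28.4 and 26.1 FPKM), and at or below 0.184 FPKM in all HFD mice. All 10 genes listed as epididymis markers were outside the table, so epididymal tissue could not be checked by them. Each comparison below was therefore also run without NC mouse 6 and SZ-A mouse 2, and without the 5 mice with Cdh1 at 20 FPKM or more, both chosen after the data were seen. NC mice 4 and 5 and SZ-A mouse 3 stayed in the latter fits. Their Cdh1 was above that of every HFD mouse, at up to 15.1 FPKM in NC and at 2.59 FPKM in SZ-A. The cut at 20 FPKM thus did not remove all libraries with Cdh1 above the HFD range. The part of these differences between libraries in the results was not tested.

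By median, Calr was the most abundant of the 10 genes and Canx the next in all 3 groups, though their ranges overlapped in NC and SZ-A. In HFD the order by median was Calr (252 FPKM), Canx (88.5), Edem1 (42.7), Ganab (41.7), Man1a (19.8), Prkcsh (18.5), Mogs (14.8), Man1a2 (10.7), Uggt1 (9.24) and Gba2 (5.27 FPKM). The steps from Calr to Canx, from Canx to Edem1, from Ganab to Man1a and from Uggt1 to Gba2 had no overlap between mice, whereas Edem1 and Ganab could not be ordered, Edem1 being the higher in 2 of 7 mice. In NC the order after Canx was Ganab, Prkcsh, Edem1, Mogs, Man1a, Uggt1, Man1a2 and Gba2, and within it each gene overlapped with the next. In SZ-A it was Ganab, Edem1, Prkcsh, Man1a, Mogs, Man1a2, Gba2 and Uggt1, also with overlap at each step. Edem1 thus stood at rank 5 in NC, rank 3 in HFD and rank 4 in SZ-A.

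**Figure D1:**
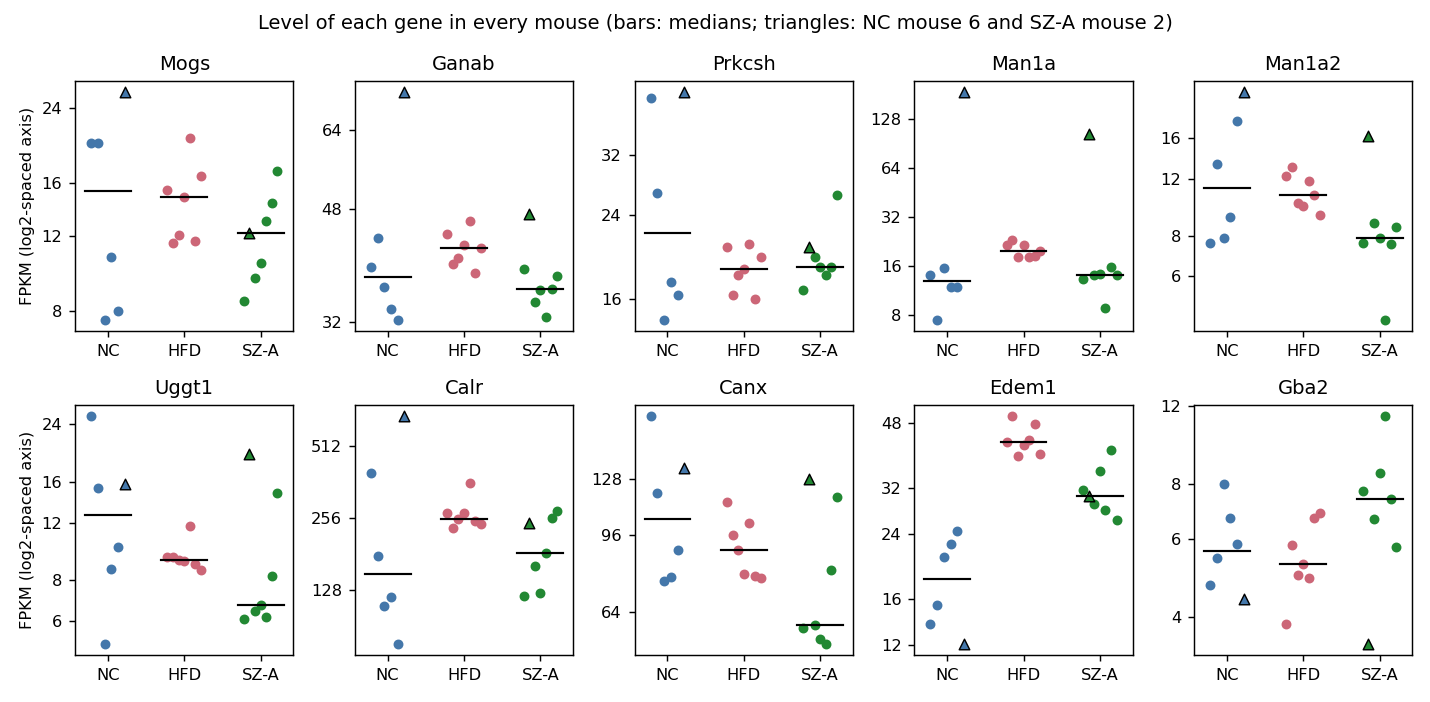
Level in FPKM of the 10 genes in every mouse, on log2-spaced axes, for NC (6 mice), HFD (7) and SZ-A (7). Bars are group medians and triangles are NC mouse 6 and SZ-A mouse 2. The 7 HFD mice lie above all 6 NC mice for Edem1, and in Man1a the triangles, at 187 and 104 FPKM, lie far above the other mice.

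Edem1, the lectin that directs misfolded glycoproteins to degradation, was the 1 member of the 10 that changed, and it did so in all 3 comparisons. Its level ran from 12.1 to 24.4 FPKM with a median of 18.1 in NC, from 39.2 to 50.2 with a median of 42.7 in HFD, and from 26.2 to 40.6 with a median of 30.4 in SZ-A. Every HFD mouse and every SZ-A mouse was above every NC mouse, and 6 of 7 SZ-A mice were below every HFD mouse. Edem1 rose in HFD against NC by a log2 fold change of 1.26 ± 0.16 (SE; 95% CI 0.91 to 1.60; adjusted p = 4.3e-05), which is 2.39-fold on the scale of FPKM + 1. In SZ-A against HFD it fell by 0.46 ± 0.11 on the log2 scale (0.729-fold; adjusted p = 0.0086). In SZ-A against NC it was 1.74-fold higher (log2 fold change 0.80 ± 0.18; adjusted p = 0.020), so the level under SZ-A lay between those of the other groups.

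The differences of Edem1 are to be read beside those of the whole tissue. At an adjusted p under 0.05 the share of all genes tested that differed was 41.1% in HFD against NC, 22.8% in SZ-A against HFD and 4.61% in SZ-A against NC. A count of 1 in 10 members was thus below the share of all genes in both comparisons with HFD. Ranges of the groups had no overlap for 1 member (Edem1) in HFD against NC, 0 in SZ-A against HFD and 1 (Edem1) in SZ-A against NC, where 20.5%, 6.08% and 3.57% of all genes had none. No member passed the threshold of the study's methods, an adjusted p under 0.05 with a log2 fold change beyond 1.5 up or down. Of all genes 7.97%, 0.864% and 1.79% passed it. The paper's results text gives a fold change above 1.5 instead, for its comparison of the HFD and SZ-A groups by DESeq2. In that comparison Edem1, at 0.729-fold by limma on FPKM + 1, did not pass by that wording. It passed in HFD against NC (2.39-fold) and in SZ-A against NC (1.74-fold), for which the results text does not state that cut. The share of all genes at that cut was not counted. At an unadjusted p under 0.05 there were 1, 2 and 1 members, the second in SZ-A against HFD being Calr.

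Macrophage and fibroblast markers moved with Edem1, whereas markers of several other cells did not. Of 16 macrophage markers, 15 rose in HFD against NC, 13 fell in SZ-A against HFD and 11 were higher in SZ-A than in NC, and their summed level ran from 97.0 to 903 FPKM in NC, from 3860 to 10200 in HFD and from 1550 to 5470 in SZ-A. Of 7 fibroblast markers, 6 rose in HFD, 7 fell in SZ-A against HFD and 1 was higher in SZ-A than in NC, with sums of 44.2 to 686 FPKM, 1100 to 1550 FPKM and 354 to 713 FPKM in NC, HFD and SZ-A. Of 6 plasma and B cell markers, 0 passed by limma in HFD against NC (1 at an unadjusted p under 0.05) and 2 fell in SZ-A against HFD, with sums of 54.7 to 342, 168 to 741 and 55.8 to 228 FPKM. The summed level of the adipocyte markers was 527 FPKM in NC mouse 6 and 9760 to 23700 FPKM in the other NC mice. It ran from 2240 to 7300 in HFD and from 5100 to 15700 in SZ-A. Of these 12 markers, 1 rose and 2 fell in HFD against NC, and 2 rose and 0 fell in SZ-A against HFD. Of 4 smooth muscle markers, 2 fell in HFD against NC and 1 rose in SZ-A against HFD. In HFD against NC 1 of 2 mesothelial markers fell, and 0 of 7 endothelial and 0 of 6 T cell markers passed. In SZ-A against HFD 1 T cell marker fell, and no mesothelial or endothelial marker passed. No defining marker was at 0 in any mouse. Fewer cells of a type and less RNA per cell cannot be told apart in bulk tissue, and the part of these cells in the level of Edem1 was not tested.

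**Figure D2:**
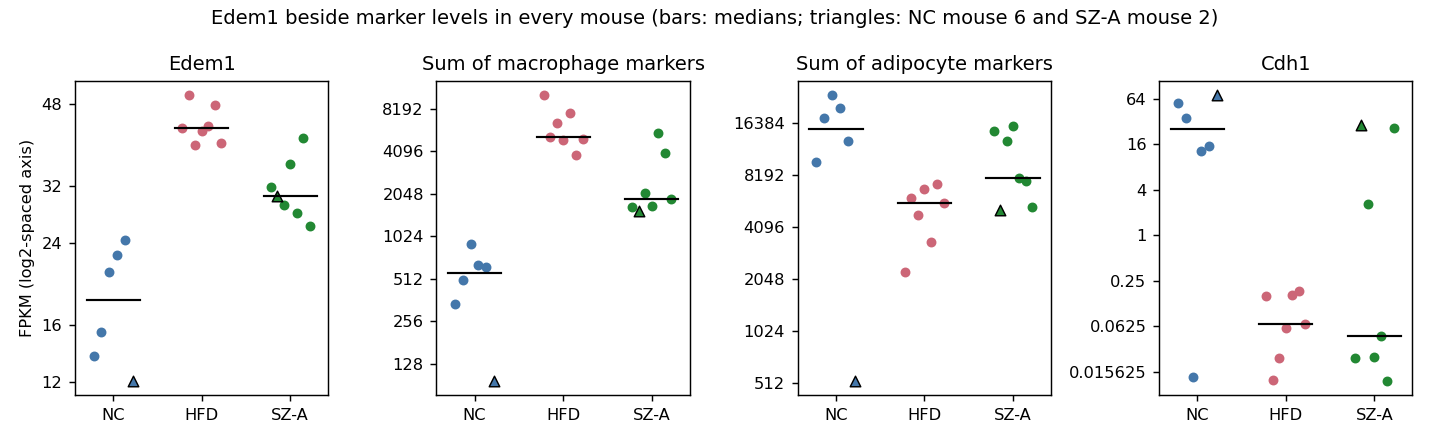
Edem1, the summed levels of 16 macrophage and 12 adipocyte markers, and Cdh1 in every mouse, in FPKM on log2-spaced axes. Bars are medians and triangles are NC mouse 6 and SZ-A mouse 2. Edem1 and the macrophage sum are lowest in NC and highest in HFD, and Cdh1 is above 20 FPKM in 3 NC and 2 SZ-A mice.

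Leaving out mice changed the Edem1 values little in the comparisons with HFD. Without NC mouse 6 and SZ-A mouse 2 the log2 fold changes were 1.15 (adjusted p = 3.3e-05) in HFD against NC, -0.45 (0.012) in SZ-A against HFD and 0.71 (0.036) in SZ-A against NC. Without the 5 mice with high Cdh1 they were 0.91 (9.7e-05), -0.40 (0.025) and 0.52, the last no longer past the threshold (adjusted p = 0.15). The same call was lost with the replicate number as a block (0.84; adjusted p = 0.11) and without NC mouse 1 (0.73; 0.054), NC mouse 2 (0.76; 0.057) or SZ-A mouse 6 (0.74; 0.050).

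**Figure D3:**
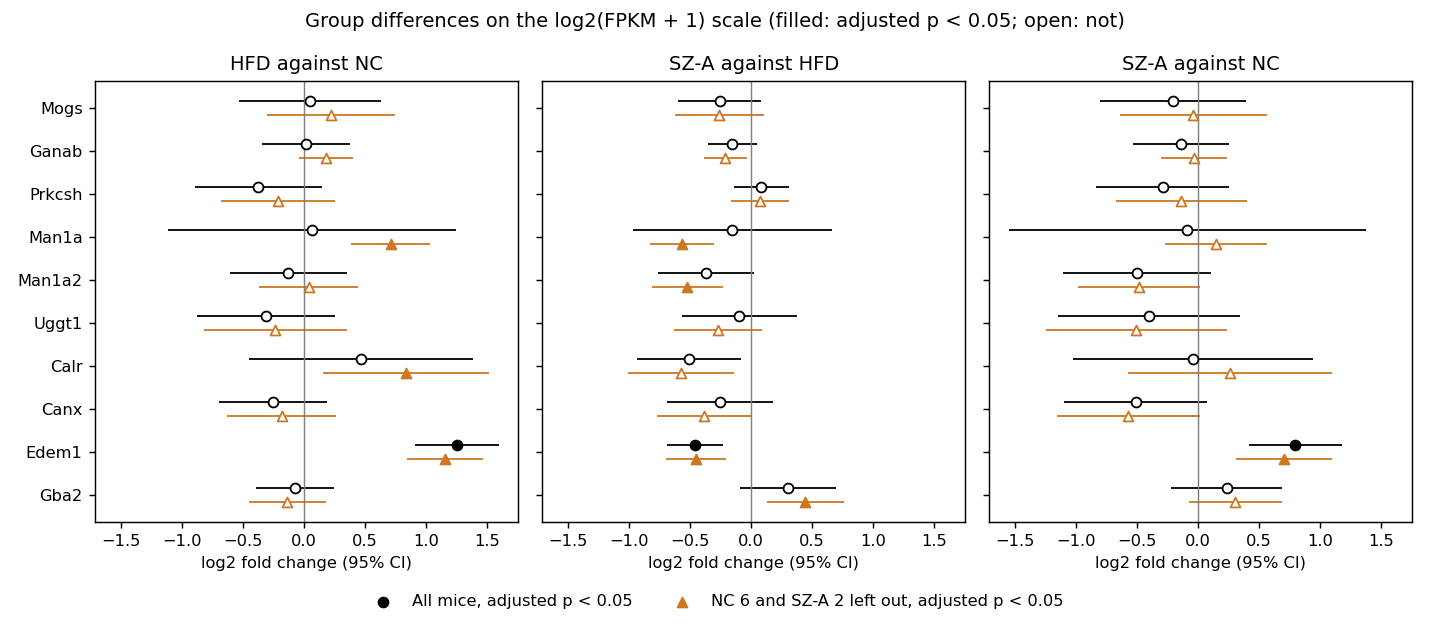
Log2 fold changes of the 10 genes with 95% confidence intervals in the 3 comparisons, on the log2(FPKM + 1) scale. Circles are fits with all mice and triangles fits without NC mouse 6 and SZ-A mouse 2, and filled symbols have an adjusted p under 0.05. Edem1 is filled throughout, and Man1a, Man1a2, Calr and Gba2 are filled in at least 1 comparison only with those mice left out.

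The glucosidases that remove the terminal glucoses did not pass the test in any comparison with all mice weighted equally. Mogs ran from 7.64 to 26.1 FPKM (median 15.3) in NC, 11.6 to 20.4 (median 14.8) in HFD and 8.46 to 17.1 (median 12.2) in SZ-A. Ganab, the catalytic subunit of glucosidase II, ran from 32.2 to 73.3 FPKM (median 37.6) in NC, 38.2 to 46.0 (median 41.7) in HFD and 32.5 to 47.3 (median 36.0) in SZ-A. Its partner Prkcsh ran from 14.5 to 43.1 FPKM (median 22), 16 to 20.9 (median 18.5) and 16.7 to 26.4 (median 18.7) in the same groups. All groups overlapped for the 3 genes, and the highest NC value was that of mouse 6 in each. For SZ-A against HFD, the comparison that bears on the alkaloids, the log2 fold changes were -0.26 ± 0.16 for Mogs (95% CI -0.59 to 0.08), -0.15 ± 0.09 for Ganab (-0.35 to 0.05) and 0.08 ± 0.11 for Prkcsh (-0.14 to 0.31), with adjusted p of 0.25, 0.25 and 0.58. With array quality weights, a fit that keeps all mice and gives less weight to the more variable ones, Mogs fell by 0.44 on the log2 scale (adjusted p = 0.018) and Ganab by 0.17, just under the threshold (adjusted p = 0.050 after rounding), while Prkcsh did not pass (adjusted p = 0.76). In HFD against NC the intervals were wider, from -0.53 to 0.63 for Mogs, -0.35 to 0.38 for Ganab and -0.90 to 0.15 for Prkcsh.

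Uggt1, the sensor that reglucosylates misfolded glycoproteins, ran from 5.12 to 25.4 FPKM (median 12.7) in NC, 8.58 to 11.7 (median 9.24) in HFD and 6.08 to 19.4 (median 6.71) in SZ-A. The SZ-A values fell apart into 5 mice at or below 8.26 FPKM and mice 2 and 7 at 19.4 and 14.8 FPKM. With all mice SZ-A differed from HFD by a log2 fold change of -0.09 ± 0.22 (adjusted p = 0.78). Without SZ-A mouse 2 it was -0.27 ± 0.17 (adjusted p = 0.24), and without both mice, the SZ-A mice of high Cdh1, it was -0.44 ± 0.10 (adjusted p = 0.0088), with every remaining SZ-A mouse below every HFD mouse.

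Calr and Canx, the lectin chaperones, varied widely among NC mice. Calr ran from 76.3 to 681 FPKM (median 149) in NC, 231 to 358 (median 252) in HFD and 121 to 273 (median 183) in SZ-A. Canx ran from 75.3 to 178 FPKM (median 104), 76.7 to 114 (median 88.5) and 54.4 to 128 (median 59.8). In SZ-A, 4 of 7 mice were below every HFD mouse for Calr. The log2 fold changes in SZ-A against HFD were -0.51 ± 0.20 for Calr (adjusted p = 0.079) and -0.26 ± 0.20 for Canx (adjusted p = 0.37), and in HFD against NC they were 0.47 ± 0.43 (0.40) and -0.25 ± 0.21 (0.35), so that neither passed the test. NC mouse 6, which held the highest Calr value, decided the call in HFD against NC. Without it the log2 fold change of Calr was 0.84 ± 0.32 (adjusted p = 0.045). Calr passed the threshold in SZ-A against HFD without SZ-A mouse 6 (-0.59; adjusted p = 0.048) or without SZ-A mouse 7 (-0.60; adjusted p = 0.045).

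The calls of both Golgi mannosidases depended on the mice that stood apart. Man1a was at 187 FPKM in NC mouse 6 and at 104 FPKM in SZ-A mouse 2, and ran from 7.52 to 15.7 FPKM in the other NC mice, 18.2 to 23.2 in HFD and 8.86 to 15.9 in the other SZ-A mice. Apart from those mice every HFD value was above every NC and every SZ-A value. With all mice the log2 fold changes were 0.07 ± 0.55 in HFD against NC and -0.15 ± 0.38 in SZ-A against HFD (adjusted p = 0.93 and 0.80). Without NC mouse 6 Man1a was 1.64-fold higher in HFD than in NC (log2 fold change 0.71 ± 0.15; adjusted p = 0.0019), and without SZ-A mouse 2 it was 0.677-fold in SZ-A against HFD (-0.56 ± 0.12; adjusted p = 0.0057). Man1a2 ran from 7.59 to 22.1 FPKM (median 11.2) in NC, 9.29 to 13 (median 10.7) in HFD and 4.41 to 16.2 (median 7.89) in SZ-A, and 6 of 7 SZ-A mice were below every HFD mouse while mouse 2 was above all of them. From HFD to SZ-A its log2 fold change was -0.37 ± 0.18 with all mice (adjusted p = 0.15) and -0.52 ± 0.14 without SZ-A mouse 2 (adjusted p = 0.014).

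Gba2, the glucosylceramidase that imino sugars inhibit outside the lysosome, was the least abundant member in NC and HFD. It ran from 4.38 to 7.99 FPKM (median 5.64) in NC, 3.85 to 6.88 (median 5.27) in HFD and 3.48 to 11.4 (median 7.38) in SZ-A. SZ-A mouse 2 held the lowest value, and 4 of the other 6 were above every HFD mouse. Between SZ-A and HFD the log2 fold change was 0.31 ± 0.19 with all mice (adjusted p = 0.24) and 0.44 ± 0.15 without SZ-A mouse 2 (adjusted p = 0.039), a direction opposite to that of Edem1. In HFD against NC it was -0.07 ± 0.15 (adjusted p = 0.72).

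Counted over the 10 genes, 3 rose in HFD against NC without NC mouse 6 (Edem1, Man1a and Calr), where 45.2% of all genes differed. In SZ-A against HFD without SZ-A mouse 2, 3 fell (Edem1, Man1a and Man1a2) and 1 rose (Gba2), where 26.4% differed, and in SZ-A against NC without both mice 1 rose (Edem1), where 6.47% differed. With the 5 mice of high Cdh1 left out, Mogs, Ganab, Man1a, Calr and Edem1 rose in HFD against NC (5 of 10, against 42.7% of all genes), with log2 fold changes of 0.67, 0.28, 0.59, 1.39 and 0.91. Likewise Man1a, Man1a2, Uggt1, Calr, Canx and Edem1 fell and Gba2 rose in SZ-A against HFD (7 of 10, against 25.9%), with log2 fold changes between -0.70 for Calr and 0.52 for Gba2. In SZ-A against NC 0 of 10 passed limma's adjusted threshold (1.22% of all genes), and 2 had an unadjusted p under 0.05. These fits rest on 3 NC mice and 5 SZ-A mice. Among them NC mice 4 and 5 and SZ-A mouse 3 still had Cdh1 above every HFD mouse. With array quality weights and all mice, Mogs, Ganab, Man1a2, Calr, Canx and Edem1 fell in SZ-A against HFD (6 of 10). Of 14695 genes tested, 3214 rose and 3189 fell in that fit, against 1392 and 1957 with equal weights. In HFD against NC Man1a, Calr and Edem1 rose with these weights (3 of 10). Of 14706 genes tested there, 3576 rose and 3710 fell, against 3091 and 2956 with equal weights. The median log2 fold change of the 10 genes was -0.03 in HFD against NC and -0.20 in SZ-A against HFD with all mice, 0.28 and -0.42 without the mice of high Cdh1, and that of all genes stayed between -0.04 and 0.03.

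Ratios between partner genes in the same mouse do not depend on the scaling of a library. Prkcsh to Ganab, the subunits of glucosidase II, ran from 0.400 to 1.07 in NC, from 0.414 to 0.471 in HFD and from 0.432 to 0.698 in SZ-A. Calr to Canx ran from 0.860 to 5.0 in NC with a median of 1.52, 2.36 to 3.49 in HFD with a median of 3.13, and 1.90 to 3.35 in SZ-A with a median of 2.33. The HFD mice were the most alike in both ratios. For Prkcsh to Ganab the difference of mean log2 ratios was -0.40 in HFD against NC (exact two-sided permutation p = 0.024, 0.15 after adjustment over the 12 ratio tests) and 0.25 in SZ-A against HFD (exact permutation p = 0.018, adjusted 0.15). For Calr to Canx it was 0.73 in HFD against NC (exact permutation p = 0.048, adjusted 0.19) and -0.25 in SZ-A against HFD (exact permutation p = 0.11, adjusted 0.34). No ratio of the 12 tests passed after adjustment, 3 having an unadjusted exact p under 0.05.

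The ratios of Calr to Canx passed once NC mouse 6, whose ratio of 5.0 was the highest, was left out. The difference in HFD against NC was then 1.03 (adjusted exact permutation p = 0.030) and that in SZ-A against NC 0.78 (adjusted 0.045). Prkcsh to Ganab passed in HFD against NC without NC mouse 3 (-0.51, adjusted exact permutation p = 0.030). In SZ-A against HFD it passed only with both NC mouse 6 and SZ-A mouse 2 left out (0.29, adjusted exact permutation p = 0.035). NC mouse 6 is not in that comparison and bears on its p only through the adjustment over all ratio tests. With any single mouse left out, the adjusted exact permutation p of that comparison was 0.084 or more. Man1a to Man1a2 ran from 0.564 to 8.47 in NC, from 1.55 to 2.20 in HFD and from 1.62 to 6.43 in SZ-A, and Mogs to Ganab from 0.211 to 0.511, 0.294 to 0.443 and 0.218 to 0.454. No difference of these ratios between groups was detected (exact permutation p between 0.49 and 0.82).

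**Figure D4:**
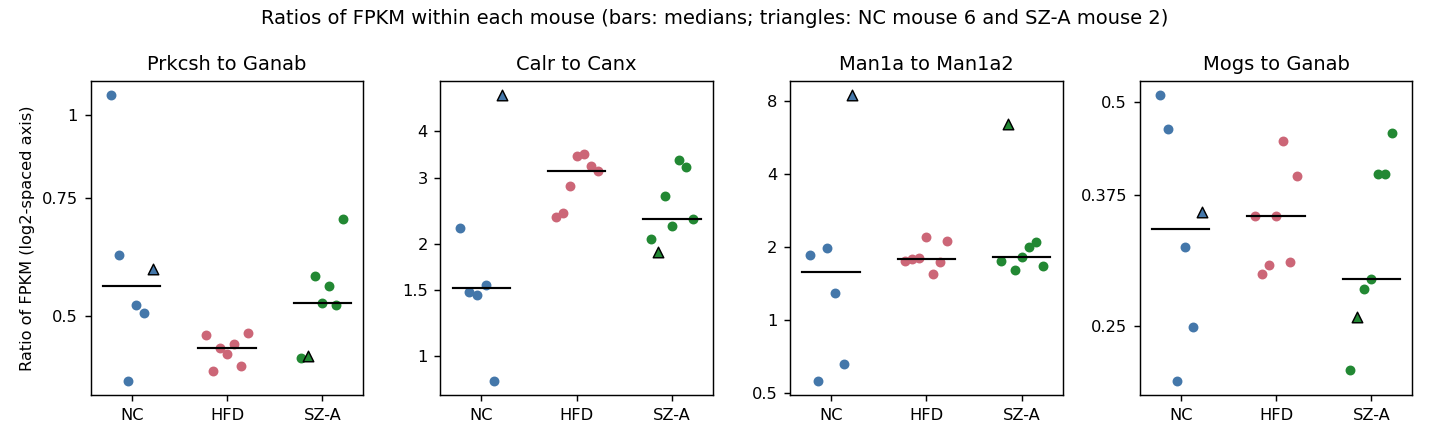
Ratio of FPKM of 4 gene pairs in every mouse, on log2-spaced axes, with medians as bars and NC mouse 6 and SZ-A mouse 2 as triangles. HFD mice lie within 0.414 to 0.471 for Prkcsh to Ganab and within 2.36 to 3.49 for Calr to Canx, and NC mice spread over a wider range in both.

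Among mice of the same group, several members varied together. Levels were centred on their group mean and correlated over the 20 mice for all 45 pairs of members, as a description. Pearson's r was 0.93 between Uggt1 and Canx (Spearman's rho 0.961), 0.90 between Prkcsh and Calr (0.806), 0.892 between Mogs and Prkcsh (0.886) and 0.874 between Mogs and Calr (0.865), and without NC mouse 6 and SZ-A mouse 2 it was 0.907, 0.872, 0.860 and 0.855. Edem1 and Gba2 ran the other way, with r of -0.838 between Edem1 and Prkcsh, -0.74 between Edem1 and Calr and -0.835 between Gba2 and Canx (-0.785, -0.643 and -0.775 without those mice). NC mice 1 and 2 and SZ-A mouse 7, the other mice of high Cdh1, stayed in all these values, and no correlation was run without them. The mice share a table and its scaling, and differ in cell makeup.

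The genes most like each member by the same measure were sought among 12449 other genes that averaged 1 FPKM or more, and r is given again without the 2 mice farthest from the member's median. Calr was most like Pdia6, a disulfide isomerase of the ER (r = 0.961, then 0.934), and Tmem97 (0.957, then 0.909). Mogs was most like Slc35c1 (0.950, then 0.930) and Gipc1 (0.944, then 0.912), and Prkcsh was most like Eef1g (0.962, then 0.933) and Avpi1 (0.956, then 0.924). Canx was most like Uggt1 (0.930, then 0.881) and Xpo5 (0.929, then 0.880), and Uggt1 was most like Ss18l1 (0.970, then 0.950) and Erlin2 (0.961, then 0.931). For Edem1 they were Rnf150 (0.905, then 0.853) and Lyst (0.888, then 0.828), for Gba2 Map4k2 (0.957, then 0.933) and Coro6 (0.944, then 0.895), and for Man1a2 Iqgap2 (0.933, then 0.917). The likeness of Man1a to Ly6g5b (0.976, then 0.764) and Teddm2 (0.973, then 0.745), and that of Ganab to Slc37a3 (0.951, then 0.807) and Llgl1 (0.929, then 0.720), was lower without NC mouse 6 and SZ-A mouse 2.

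Other genes of the pathway were followed in 8 lists from the assembly of the oligosaccharide to the Golgi, 104 genes apart from the members, of which 97 were tested. In HFD against NC 20 rose and 10 fell (30.9% of those tested, against 41.1% of all genes). In SZ-A against HFD 3 rose and 13 fell (16.5%, against 22.8%), and in SZ-A against NC 5 were higher and 0 lower (5.15%, against 4.61%). Their median log2 fold changes were 0.09, -0.09 and -0.06, where those of all genes were -0.04, 0.03 and -0.00. With all mice the lists as a whole thus held no larger share of called genes than the table did in the comparisons with HFD. Without NC mouse 6 and SZ-A mouse 2 the shares in those comparisons were 45.4% and 23.7% (45.2% and 26.4% of all genes). Without the mice of high Cdh1, 45 rose and 12 fell in HFD against NC, a larger share than in the table (58.8%, against 42.7%). In SZ-A against HFD 4 rose and 24 fell without those mice, near the share of the table (28.9%, against 25.9%). In SZ-A against NC only Man1c1 of the 5 then passed (adjusted p = 0.049).

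Golgi trimming and branching genes that passed the test with all mice changed in 1 direction in each comparison. Of 12 tested, 5 rose in HFD against NC and 0 fell (41.7%, against 41.1% of all genes). In SZ-A against HFD 5 fell and 0 rose (41.7%, against 22.8%). Man1c1, a Golgi mannosidase related to Man1a and Man1a2, ran from 2.28 to 9.30 FPKM in NC, from 35.6 to 50.4 in HFD and from 12 to 34.4 in SZ-A, with no overlap between any of the groups. Its log2 fold changes were 2.65 ± 0.25 (adjusted p = 2.2e-06), -1.08 ± 0.18 (0.0012) and 1.57 ± 0.30 (0.0080) in HFD against NC, SZ-A against HFD and SZ-A against NC. Mgat5, which starts a branch of complex N-glycans, ran from 1.68 to 2.86 FPKM in NC, from 6.33 to 11.8 in HFD and from 3.24 to 6.56 in SZ-A, and its log2 fold changes were 1.63 ± 0.14, -0.92 ± 0.15 and 0.71 ± 0.15 (adjusted p = 1.4e-06, 0.0012 and 0.016). Man2a1, the mannosidase that acts before branching, rose by 1.36 ± 0.46 in HFD (adjusted p = 0.031; 0.52 with adjusted p = 0.057 without the mice of high Cdh1) and fell by 0.78 ± 0.14 in SZ-A against HFD (adjusted p = 0.0018). Mgat1, which begins complex glycans, rose in HFD against NC (0.90 ± 0.11; adjusted p = 2.6e-05) and was higher in SZ-A than in NC (0.70 ± 0.18; adjusted p = 0.045, and 0.11 without the mice of high Cdh1), while SZ-A against HFD did not pass (-0.20 ± 0.16; adjusted p = 0.37).

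Among other glucosidases and imino sugar targets, 7 of 12 listed genes were tested. Of these, 3 rose and 1 fell in HFD against NC (57.1%, against 41.1% of all genes). In SZ-A against HFD 2 fell (28.6%, against 22.8%). Gla, the lysosomal alpha-galactosidase, ran from 1.72 to 7.12 FPKM in NC, from 21.8 to 51.8 in HFD and from 6.62 to 40.7 in SZ-A. Its log2 fold change was 2.72 ± 0.28 in HFD against NC (adjusted p = 5e-06), -1.17 ± 0.34 in SZ-A against HFD (0.023) and 1.55 ± 0.39 in SZ-A against NC (0.035). Without the mice of high Cdh1 only the first passed, the adjusted p of the others being 0.054 and 0.11. Ganc, an alpha-glucosidase related to Ganab, fell in HFD against NC by 0.51 ± 0.18 (adjusted p = 0.037), and by 0.81 without those mice.

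In glycoprotein disposal, 3 of 14 genes rose and 1 fell in HFD against NC (28.6%, against 41.1% of all genes). In SZ-A against HFD 3 fell (21.4%, against 22.8%). Sel1l, the partner of the ER degradation ligase, ran from 13.2 to 20.8 FPKM in NC, from 25.8 to 34.2 in HFD and from 18.4 to 28.3 in SZ-A, rose by 0.74 ± 0.12 in HFD (adjusted p = 0.00031) and fell by 0.36 ± 0.10 in SZ-A against HFD (adjusted p = 0.022), the same directions as Edem1. Edem3, a relative of Edem1, fell in SZ-A against HFD (-0.49 ± 0.15; adjusted p = 0.026). Engase and Man2b1, which break down free and lysosomal glycans, rose in HFD by 0.89 ± 0.12 and 1.19 ± 0.39 (adjusted p = 5.8e-05 and 0.027), Man2b1 also falling in SZ-A against HFD (-0.85 ± 0.18; adjusted p = 0.0044), whereas Ngly1, which removes N-glycans from retrotranslocated proteins, fell in HFD by 0.51 ± 0.17 (adjusted p = 0.031), and by 0.84 without the mice of high Cdh1.

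The assembly of the dolichol-linked oligosaccharide was mixed in direction. Of 23 genes, 6 were higher and 4 lower in HFD against NC (43.5%, against 41.1% of all genes). In SZ-A against HFD 2 were higher and 2 lower (17.4%, against 22.8%). Srd5a3, the polyprenol reductase that makes dolichol, ran from 4.05 to 5.55 FPKM in NC, from 10.2 to 18.3 in HFD and from 6.26 to 10 in SZ-A, without overlap, and its log2 fold changes were 1.34 ± 0.13, -0.67 ± 0.13 and 0.68 ± 0.13 (adjusted p = 4e-06, 0.0028 and 0.0077). Dpagt1, which adds the first sugar, rose by 0.73 ± 0.12 and then fell by 0.50 ± 0.13 (adjusted p = 0.0003 and 0.013), and Alg8, a glucosyltransferase of this assembly, rose in HFD by 0.67 ± 0.13 (adjusted p = 0.0013). Dpm3 and Dpm1, subunits of dolichol-phosphate mannose synthase, fell in HFD by 0.99 ± 0.21 and 0.43 ± 0.09 (adjusted p = 0.0022 and 0.0016, Dpm3 by 0.57 without the mice of high Cdh1) and were higher in SZ-A than in HFD by 0.64 ± 0.17 and 0.23 ± 0.06 (adjusted p = 0.016 and 0.014). Dpm1 had medians of 0.782, 0.382 and 0.620 FPKM in NC, HFD and SZ-A, where a log2 fold change of FPKM + 1 understates the ratio.

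**Figure D5:**
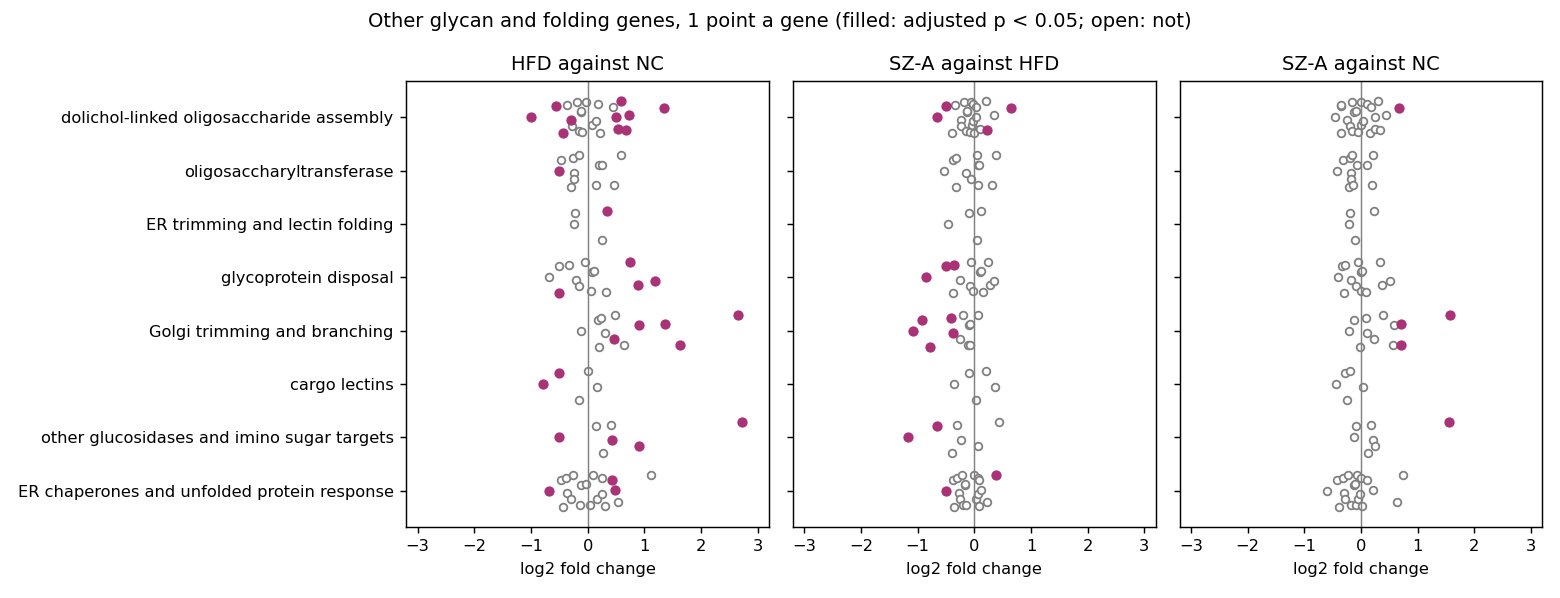
Log2 fold change of each tested pathway gene apart from the 10 members, by list, in the 3 comparisons. Filled points have an adjusted p under 0.05. The filled points of Golgi trimming and branching lie to the right in HFD against NC and to the left in SZ-A against HFD, and those of the dolichol list lie on both sides.

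The shares called in the remaining lists depended on the mice used. Among oligosaccharyltransferase subunits 1 of 12 fell in HFD against NC (Stt3b, a catalytic subunit, -0.51 ± 0.12; adjusted p = 0.0035), among cargo lectins 2 of 5 (Lman2, -0.79 ± 0.22, and Lman2l, -0.50 ± 0.14; adjusted p = 0.010 and 0.011; Lman2 was at -0.32 without the mice of high Cdh1), and in the list of ER trimming and lectin folding Man1b1, the ER mannosidase, rose by 0.34 ± 0.11 (adjusted p = 0.022). With all mice 8.33%, 40.0% and 25.0% of the 3 lists were called in HFD against NC, against 41.1% of all genes. None of these 3 lists held a called gene in SZ-A against HFD by limma, where 22.8% of all genes were called. In that comparison 4, 2 and 0 genes of the oligosaccharyltransferase, cargo lectin and trimming lists had an unadjusted p under 0.05. Of 20 ER chaperones and genes of the unfolded protein response, 2 rose in HFD against NC (Atf6, 0.49 ± 0.14, and Ddit3, 0.42 ± 0.16; adjusted p = 0.012 and 0.043) and Sil1, a nucleotide exchange factor of the ER chaperone Hspa5, fell by 0.69 ± 0.20 (adjusted p = 0.012). Between SZ-A and HFD Atf6, the ER stress sensor and transcription factor, fell by 0.50 ± 0.14 (adjusted p = 0.017) and Sil1 rose by 0.39 ± 0.12 (adjusted p = 0.035). Without the mice of high Cdh1 Sil1 passed in neither comparison (-0.35 and 0.33; adjusted p = 0.066 and 0.088). In HFD against NC 7 of these 20 genes rose and 1 fell without NC mouse 6 (40.0%, against 45.2% of all genes), and 14 rose and 0 fell without the mice of high Cdh1 (70.0%, against 42.7%). In the latter fit 7 oligosaccharyltransferase genes rose and 1 fell (66.7%), 2 of the 4 ER trimming genes tested rose and 1 fell (75.0%), and 1 of 5 cargo lectins rose and 2 fell. The macrophage and fibroblast markers given above moved in the same directions as the pathway genes that rose in HFD and fell in SZ-A, and their part was not tested.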

How the data were processed

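Poly(A) RNA of eWAT was sequenced in 20 mice (6 NC, 7 HFD, 7 SZ-A). The authors aligned paired-end reads to GRCm38 with HISAT2, and the submitters' processing notes name featureCounts 1.5.0-p3. The values deposited by the authors are FPKM for 14776 genes, each above 0 in every mouse, and the filter behind this is not given in the sources used here. Ensembl identifiers were matched to GENCODE M21 symbols (14770 found). Reads were recovered from FPKM and exon length, and 95.9% to 96.3% of values under 1000 reads were whole within 0.01.

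Groups were compared pairwise with limma 3.58.1 (R 4.3.3; lmFit, eBayes with trend) on log2(FPKM + 1), leaving out genes that averaged under 0.1 FPKM, with Benjamini-Hochberg adjustment over all genes tested and a threshold of 0.05. The comparisons share groups, so they are not independent of each other. Ratios were compared by exact two-sided permutation tests. The steps were tested on simulated data. No statement says whether mice shared cages or litters. Tables were made with Python 3.11.15, pandas 2.3.3, NumPy 2.4.6 and SciPy, and plots with matplotlib 3.10.9.

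The members, the gene lists and the tests were chosen with earlier results of these data known. The genes named are the 10 members, the 3 largest rises and 3 largest falls among called genes of each pathway list and comparison, the 2 genes most like each member, and markers. Ly6g5b, Teddm2, Cdh1 and Krt18 were named after their values were seen. A few genes named by these criteria are left out of the text.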

Additional observations from a re-analysis of the deposited data

Results flagged for a closer look

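In 30 sets of values, the 10 genes in each of 3 groups, the most extreme mouse was compared with the range of its group by Dixon's criterion at the 95% level. It was passed in 5 sets, where chance passes about 1 in 20 sets, or 1.5 of the 30. Man1a was at 187 FPKM in NC mouse 6, with the other NC mice at 7.52 to 15.7 FPKM, and at 104 FPKM in SZ-A mouse 2, with the other SZ-A mice at 8.86 to 15.9 FPKM. Ganab was at 73.3 FPKM in NC mouse 6 (others 32.2 to 43.3 FPKM). Uggt1 and Calr were highest in the same library of the HFD group, mouse 5, at 11.7 FPKM (others 8.58 to 9.45) and 358 FPKM (others 231 to 269).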

How the results depend on the processing

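Edem1 kept its direction and its side of the threshold in HFD against NC and in SZ-A against HFD under each of the 13 alternatives and with each mouse left out. In SZ-A against NC it lost the call as given in the report. The number of members called was 1 in each comparison. It was 3, 6 and 1 in HFD against NC, SZ-A against HFD and SZ-A against NC with array quality weights, 3, 4 and 1 without NC mouse 6 and SZ-A mouse 2, 5, 7 and 0 without the mice of high Cdh1, and 0 in all 3 with a log2 fold change above 1.5. With single mice left out it ran from 1 to 3, 1 to 4 and 0 to 1. For the pathway genes (30, 16 and 5 called) array quality weights gave 46, 45 and 13, leaving out the mice of high Cdh1 gave 57, 28 and 1, a log2 fold change above 1.5 gave 3, 0 and 2, and fitting all 3 groups gave 34, 10 and 8. With single mice left out they ran from 25 to 44, 10 to 23 and 3 to 5. The number of ratios called was 0, 3 without NC mouse 6 and SZ-A mouse 2, and 0 to 2 with single mice left out. Calls over all genes moved as well. The main fits called 3091 higher and 2956 lower in HFD against NC. They called 1392 and 1957 in SZ-A against HFD, and 611 and 67 in SZ-A against NC. With array quality weights these were 3576 and 3710, 3214 and 3189, and 1713 and 926. With all 3 groups in the fit they were 3135 and 2864, 725 and 1364, and 1153 and 374. Why these counts moved was not tested, and some of the fits hold fewer mice.

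Replicate numbers are shared between groups, but mice of the same number did not deviate together, with correlations from -0.284 to 0.297 over 6 pairs in HFD and NC, -0.389 to 0.371 over 7 pairs in SZ-A and HFD, and -0.41 to 0.584 over 6 pairs in SZ-A and NC, and 1, 2 and 1 mice correlated best with their own number. With the replicate number as a block, 1, 1 and 0 members and 21, 12 and 1 pathway genes were called, and 0 ratios. Over all genes 2423 were then called higher and 2000 lower in HFD against NC. The counts were 1029 and 1590 in SZ-A against HFD, and 157 and 16 in SZ-A against NC.

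Members that were not called changed sign in several fits. In HFD against NC the log2 fold changes of Mogs and Ganab were -0.027 and -0.058 with quantile normalization, that of Man1a2 was 0.038 without NC mouse 6, and those of Prkcsh, Uggt1 and Canx were 0.19, 0.27 and 0.16 without the mice of high Cdh1. With single mice left out Mogs ran from -0.11 to 0.22, Ganab from -0.055 to 0.18, Man1a from -0.18 to 0.71, Man1a2 from -0.25 to 0.038 and Gba2 from -0.14 to 0.011. In SZ-A against HFD Prkcsh was at -0.0095 without the mice of high Cdh1, and Man1a ran from -0.56 to 0.0048 with single mice left out. In SZ-A against NC Mogs, Ganab, Prkcsh, Man1a and Calr were at 0.31, 0.060, 0.19, 0.0053 and 0.695 without the mice of high Cdh1, Man1a and Calr at 0.44 and 0.037 with array quality weights and at 0.15 and 0.26 without NC mouse 6 and SZ-A mouse 2, and with single mice left out Ganab ran from -0.21 to 0.024, Man1a from -0.50 to 0.56 and Calr from -0.30 to 0.33. Among differences of log2 ratios, Man1a to Man1a2 in SZ-A against HFD was -0.016 without NC mouse 6 and SZ-A mouse 2 and ran from -0.016 to 0.32 with single mice left out, and in HFD against NC from -0.069 to 0.71. Prkcsh to Ganab and Mogs to Ganab in SZ-A against NC were 0.13 and 0.28 without the mice of high Cdh1 and ran from -0.27 to 0.020 and -0.20 to 0.051, and Mogs to Ganab in HFD against NC ran from -0.086 to 0.17.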

Other observations

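Genes of the ER outside the members also stood out in single libraries. Derl3, a component of ER-associated degradation, was at 82.5 FPKM in NC mouse 6, 14.1 FPKM in SZ-A mouse 2 and 11.5 FPKM in NC mouse 1, and at or below 4.81 FPKM in the other 17 mice. Hspa5, the main Hsp70 chaperone of the ER, was at 527, 340 and 429 FPKM in the same mice and ran from 172 to 369 FPKM in HFD. The member Calr was at 681 and 392 FPKM in NC mice 6 and 1. In SZ-A mouse 2 it did not stand out, at 243 FPKM, with SZ-A mice 6 and 7 at 255 and 273 FPKM and HFD at 231 to 358 FPKM. Krt18, a keratin of simple epithelia, was at 452, 119 and 454 FPKM in NC mouse 6, SZ-A mouse 2 and NC mouse 1. It was also at 150 FPKM in NC mouse 2, 168 FPKM in SZ-A mouse 7, and 56.0 and 53.7 FPKM in NC mice 4 and 5, and was at or below 3.23 FPKM in all HFD mice. These are values of single libraries, chosen after they were seen, and no test was run on them.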
